A study of Mus musculus with 6 samples.

Results

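The 50 genes described here encode the machinery that moves secretory proteins into the endoplasmic reticulum (ER) and attaches N-linked glycans to them. They were chosen by gene name from the 48321 gene names of the deposited table. The naming rule used no values, but earlier results of these data were known when the genes were chosen. They were sorted into 6 roles. There were 7 genes of the signal recognition particle (SRP) and its receptor, and 5 of signal peptidase. The Sec61 translocon with Sec62, Sec63 and the translocon-associated protein complex (TRAP) had 10. Lipid-linked oligosaccharide synthesis had 14, the oligosaccharyltransferase 11 and the ER glucosidases 3. RNA was sequenced from isolated pancreatic islets of C57BL6 mice labelled WT. The high-fat group held 3 samples from mice kept for 4 months on a diet with 60% of its kcal from fat, which began when they were 3 months old. The chow group held 3 samples from mice on normal chow, with no age or feeding time given in the labels used here, whose treatment field names the high-fat diet for every sample while the diet field and title separate the groups. For 48321 of 48321 gene names the value of chow replicate 2 was the average of the other chow columns, and it was left out, so all values below rest on 3 high-fat and 2 chow libraries. The labels do not say that each sample came from its own animals, so a p-value here sets a difference against the spread of these libraries, which may be technical.

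In cells that secrete as much protein as the beta-cell, SRP binds the signal sequence of a nascent chain and docks on its receptor, and the chain then enters the ER through the Sec61 channel, where signal peptidase removes the signal sequence. A glycan prebuilt on the lipid dolichol by the ALG enzymes is transferred to asparagines of the chain by the oligosaccharyltransferase, whose catalytic subunit is either STT3A, which works beside the translocon, or STT3B, which can also act after it. The glucosidases then trim the glycan, which admits the protein to the calnexin and calreticulin folding cycle. Exocrine acinar cells, which surround the islets, are also rich in this machinery.

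The libraries differed in more than the diet. Values are given as CPM, reads scaled to the library total. The gene rows summed to 832416 to 963615 CPM in the high-fat libraries, against 841705 and 674482 CPM in chow replicates 1 and 3. From the steps between low values, 1 read was worth 0.0285 to 0.0425 CPM in the high-fat libraries and 0.0532 and 0.0405 CPM in chow replicates 1 and 3. Rn7sk, a small RNA with no poly(A) tail, stood at 3192 to 3935 CPM in the high-fat libraries against 6.27 and 13.3 CPM in the chow libraries, so a difference of library type and one of diet cannot be told apart for any gene below. The 19 acinar markers took 1.36% to 9.95% of the summed gene CPM in the high-fat libraries, against 22.2% and 8.6% in chow replicates 1 and 3. The median log2 fold change of these markers, high-fat over chow, was -1.40, against 0.05 for all genes tested. Of these markers 1 passed the test as higher (Bhlha15, a secretory-cell transcription factor named after its value was seen) and 0 as lower. Of 10 beta-cell markers 4 were called higher and 0 lower, with a summed level of 87653 to 95727 CPM in the high-fat libraries and of 57623 to 80115 CPM in the chow libraries. Of 8 fibroblast markers 0 were called higher and 6 lower (85.3 to 125 CPM in sum on the high-fat diet, 187 to 286 CPM on chow). No listed marker was at 0 in any library. The part of these cell types in the results below was not tested, and in bulk RNA fewer cells of a type and less RNA per cell cannot be told apart.

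With the deposited CPM, 16 of the 50 genes were higher on the high-fat diet and 2 were lower, at a Benjamini-Hochberg adjusted p below 0.05 in limma. That is 32% and 4% of the members, where 14.9% and 8.78% of the 16939 genes tested were called higher and lower and 23.7% either way. All 50 members passed the filter of 0.5 CPM on average, and their levels ran from 1.46 to 321 CPM over the libraries. By role, the calls took in the Sec61 channel and TRAP (6 higher), the oligosaccharyltransferase (4 higher), the ALG enzymes (3 higher), the glucosidases (2 higher) and the SRP receptor (1 higher), while the 5 signal peptidase genes gave 0 calls. The median log2 fold change, on the scale of log2(CPM + 1), was 0.20 for the members and 0.05 for all genes tested. The 3 high-fat libraries lay above both chow libraries for 30 members (60%, against 32.8% of all genes tested) and below both for 7 (14%, against 22.5%), and 55.4% of all genes had no overlap either way.

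How many members were higher depended on how the libraries were scaled. Median-ratio scaling gave 12 higher and 4 lower members (11.8% and 11.5% of all genes), and a trimmed mean gave the same counts (11.1% and 11.4% of all genes). With the acinar score as a covariate 10 were higher and 0 lower (8.03% and 5.31% of all genes). Another library size was the summed CPM of the gene rows without acinar and insulin genes. It thus also replaced the read total by a sum over gene rows. With acinar and insulin genes removed from the library size in this way, the median of all genes moved from 0.05 to -0.29. Then 0 members were higher (4.70% of all genes) and 13 lower (30.7% of all genes). How much either change contributed to these calls was not tested. Measured from the all-gene median, that of the members was 0.14 with the deposited CPM and 0.11 in that scaling. Without high-fat replicate 2 the members called higher were 9 (1167 of all genes), and without high-fat replicate 3 they were 10 (1222 of all genes). With no library left out, 2524 of all genes were called higher with the deposited CPM. For 9 of the 16 members, namely Srprb, Sec61a1, Sec61b, Ssr2, Rpn1, Stt3a, Ostc, Mogs and Prkcsh, the call held in 14 of 15 alternative fits. It was lost when acinar and insulin genes left the library size, where their log2 fold changes were 0.09 to 0.36 (adjusted p = 0.0633 to 0.613). The other 7 lost the call in 5 to 11 of the 15 fits, and Ssr1, Ssr4, Stt3b and Alg1 turned to between -0.070 and -0.012 in that scaling.

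**Figure D1:**
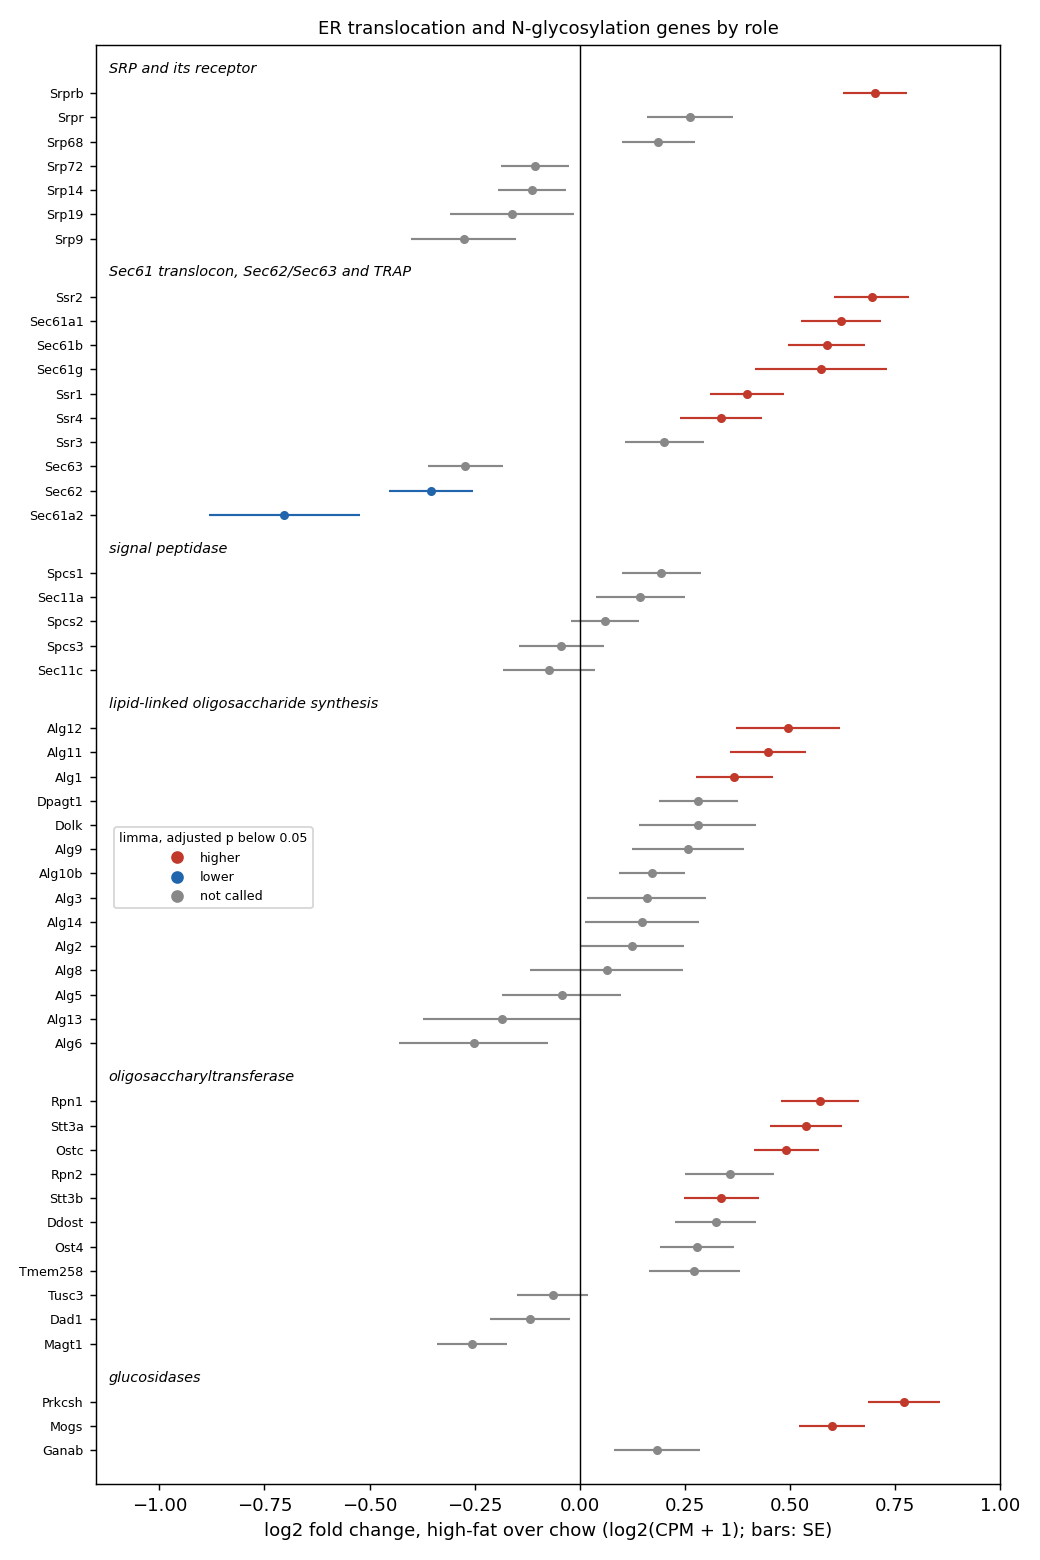
Log2 fold change of each of the 50 members, high-fat over chow, on the log2(CPM + 1) scale, grouped by role; points are limma estimates from 3 high-fat and 2 chow libraries, bars are standard errors and colours give the call with the deposited CPM. Within the translocon group the points run from 0.69 for Ssr2 to -0.70 for Sec61a2, while all 5 signal peptidase genes lie between -0.07 and 0.19.

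Among the targeting factors, the receptor's beta subunit stood apart from the particle. Srprb, the membrane-anchored GTPase that holds the receptor at the ER, was at 53.2, 52.8 and 56.0 CPM in high-fat replicates 1, 2 and 3, against 32.3 and 33.4 CPM in chow replicates 1 and 3. Every high-fat library was above every chow library, and the log2 fold change was 0.70 ± 0.08 (SE, adjusted p = 0.00165), the smallest adjusted p among the members. In GENCODE M21, 20.7% of the exon bases of Srprb overlap other genes, the largest part Gm20425, a gene on the same strand. The row of Gm20425 held 1.6 to 3.44 CPM on the high-fat diet, against 2.66 to 6.1 CPM on chow. The sum of both rows kept the order, at 54.4 to 59.4 CPM on the high-fat diet against 36.0 to 38.4 CPM on chow. Srpr, the alpha subunit that SRP docks on, had 306, 283 and 274 CPM in the high-fat libraries and 244 and 234 CPM in the chow libraries. These groups did not overlap either, but the change of 0.26 ± 0.10 did not pass (adjusted p = 0.104). Of the 31-base words in the longest transcript of Srpr, 30.2% occur in another gene, mainly Gm6733, and summed with that row it had 293.8 to 330.1 CPM on the high-fat diet, against 268 and 271 CPM on chow.

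None of the 5 SRP protein genes among the members was called with the deposited CPM. Srp72, part of the protein pair that carries the particle's S domain, had 116, 115 and 117 CPM in the high-fat libraries and 130 and 121 CPM in the chow libraries. Its partner Srp68 had 95.3, 85.5 and 84.8 CPM on the high-fat diet and 78.6 and 76.5 CPM on chow. The pair thus lay on opposite sides of the chow libraries, and neither passed (adjusted p = 0.368 for Srp72 and 0.158 for Srp68). Srp9 and Srp14, which together bind the Alu domain, had log2 fold changes of -0.28 and -0.11, and Srp19 had -0.16 (adjusted p = 0.149, 0.335 and 0.46). These 3 and Srp72 were among the 13 members called lower when acinar and insulin genes left the library size. The particle's RNA, listed as Rn7s1 and Rn7s2, was at 6398 to 11503 CPM in the high-fat libraries, against 1.03 to 1.53 CPM in the chow libraries, and it too has no poly(A) tail. The GTPase subunit is listed as Srp54a and Srp54b, outside the naming rule. Srp54a had 42.9 to 45.6 CPM on the high-fat diet, against 65.1 and 69.9 CPM on chow, and Srp54b had 126 to 142 CPM on the high-fat diet, against 137 and 159 CPM on chow, and reads of such copies may be split between them.

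The translocon group gave the most calls. Sec61a1, the pore-forming subunit, was at 258, 247 and 246 CPM in the high-fat libraries, against 155 and 171 CPM in the chow libraries. Sec61b, a small subunit beside the pore, was at 70.6, 64.9 and 68.1 CPM on the high-fat diet and at 41.8 and 48.1 CPM on chow. In both genes the lowest high-fat library was above the highest chow library, and the log2 fold changes were 0.62 ± 0.09 and 0.59 ± 0.09 (adjusted p = 0.00582 and 0.0063). Sec61g, the remaining small subunit, was at 3.27, 2.88 and 2.77 CPM on the high-fat diet and at 1.46 and 1.89 CPM on chow (adjusted p = 0.0389), a call lost in 9 of 15 alternative fits. Of the 31-base words of its longest transcript, 21.3% occur in another gene, mainly Gm10177, whose row was higher than that of Sec61g itself (37.3 to 42.3 CPM on the high-fat diet, against 31.1 and 36.7 CPM on chow). Summed with that row, the ratio of the group means was 1.22, and the level of Sec61g on its own is therefore uncertain. For Sec61b, 19.5% of the words are shared, mainly with Gm10320. The row of Gm10320 held 1.24 to 2.58 CPM on the high-fat diet, against 8.94 and 8.33 CPM in chow replicates 1 and 3. The sum of both rows was 67.1 to 73.2 CPM on the high-fat diet, against 50.7 and 56.4 CPM on chow. The ratio of the group means was 1.51 for Sec61b alone and 1.30 for the sum.

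TRAP assists weak signal sequences at the channel, and 3 of its 4 subunits were called higher. Ssr2, the beta subunit, was at 99.3, 96.0 and 109 CPM in the high-fat libraries, against 60.3 and 64.2 CPM in the chow libraries, a log2 fold change of 0.69 ± 0.09 (adjusted p = 0.00309). Ssr1, the alpha subunit, was at 208, 213 and 222 CPM on the high-fat diet and at 165 and 160 CPM on chow (0.40 ± 0.09, adjusted p = 0.0204). Ssr4, the delta subunit, was at 88.9, 87.4 and 75.4 CPM on the high-fat diet and at 67.6 and 64.7 CPM on chow. High-fat replicate 3 was the lowest of its group for Ssr4, and the call (adjusted p = 0.0462) was lost in 10 of 15 alternative fits. Ssr3, the gamma subunit, had 197, 199 and 195 CPM on the high-fat diet and 182 and 162 CPM on chow and did not pass (adjusted p = 0.16), although the groups did not overlap.

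The other genes of the translocon group lay on the opposite side. Sec62, which with Sec63 serves proteins that enter after translation, was at 107, 97.5 and 112 CPM in the high-fat libraries, against 144 and 127 CPM in the chow libraries, and fell by 0.35 on the log2 scale (adjusted p = 0.0435). Sec61a2, the second alpha isoform of the channel, was at 2.3, 2.1 and 2.99 CPM on the high-fat diet and at 4.04 and 5.23 CPM on chow (log2 fold change -0.70, adjusted p = 0.0322). With the deposited CPM these 2 were the only members called lower, and each lost its call in several alternative fits, Sec62 in 7 and Sec61a2 in 6 of 15. In GENCODE M21, 19.9% of the exon bases of Sec61a2 overlap other genes, the largest part Nudt5 on the other strand. Nudt5 had 25.9 to 26.4 CPM on the high-fat diet, against 21.2 and 21.7 CPM on chow. Whether the counting used strand is not given in the sources used here. Sec63, a J-domain protein that recruits the chaperone BiP to the channel, had 99.7, 103 and 112 CPM on the high-fat diet and 131 and 122 CPM on chow. It did not pass with the deposited CPM (-0.27, adjusted p = 0.0686) and was called lower with median-ratio scaling (-0.35, adjusted p = 0.0332).

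**Figure D2:**
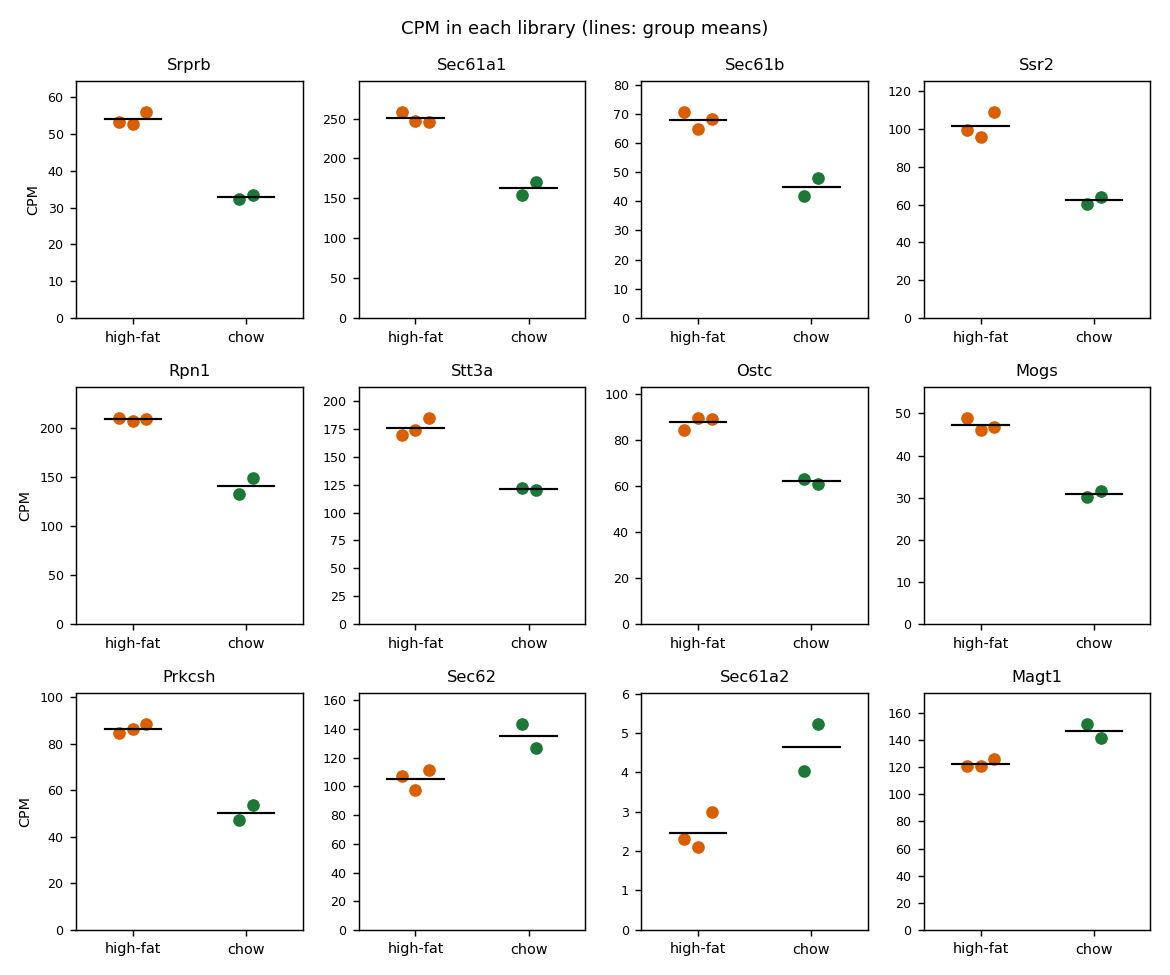
CPM of 12 members in each library, with 3 high-fat libraries left of 2 chow libraries in every panel; points are libraries and lines are group means, and each axis starts at 0. In the panels from Srprb to Prkcsh every high-fat point is above both chow points, whereas in those of Sec62, Sec61a2 and Magt1 every high-fat point is below them.

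None of the signal peptidase genes passed the test with the deposited CPM. Spcs3, whose yeast counterpart is needed for cleavage, had 201, 215 and 213 CPM in the high-fat libraries and 230 and 203 CPM in the chow libraries. Spcs2, an accessory subunit, had 117, 112 and 120 CPM on the high-fat diet and 110 and 113 CPM on chow, and 8.93% of its words are shared with other genes, mainly the pseudogene row Spcs2-ps. The groups overlapped for both genes, with adjusted p = 0.777 for Spcs3 and 0.614 for Spcs2. Spcs1 and the alternative catalytic subunits Sec11a and Sec11c had log2 fold changes of 0.19 ± 0.09, 0.14 ± 0.11 and -0.07 ± 0.11 (adjusted p = 0.175, 0.352 and 0.657). Spcs3 and Sec11c were called lower when acinar and insulin genes left the library size, where 30.7% of all genes were lower. Spcs1 was called higher with length and GC trends removed, where 11.7% of all genes were higher.

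In the assembly of the lipid-linked glycan, 3 mannosyltransferases were called higher. Alg1, which adds the initial mannose, was at 18, 17.3 and 17.9 CPM in the high-fat libraries, against 13.1 and 14 CPM in the chow libraries. Alg11, which adds the last mannoses on the cytosolic face, was at 35.3, 35.7 and 40.1 CPM on the high-fat diet and at 26.1 and 27.7 CPM on chow. Alg12, a mannosyltransferase of the luminal face, was at 10.1, 12.4 and 11.3 CPM on the high-fat diet and at 7.58 and 7.73 CPM on chow. The high-fat libraries lay above the chow libraries in each, with log2 fold changes of 0.37 ± 0.09, 0.45 ± 0.09 and 0.50 ± 0.12 (adjusted p = 0.0298, 0.016 and 0.0295). These calls were less stable than those of Sec61a1 and Sec61b, as Alg1 lost its call in 10, Alg11 in 6 and Alg12 in 7 of 15 alternative fits.

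The other 11 genes of glycan assembly did not pass. Dpagt1, the enzyme that starts the glycan on dolichol phosphate, had 17.8, 17.2 and 16.6 CPM in the high-fat libraries and 14.5 and 13.5 CPM in the chow libraries (0.28 ± 0.09, adjusted p = 0.0701). Alg2, which acts between Alg1 and Alg11, had 101, 105 and 106 CPM on the high-fat diet and 82.8 and 109 CPM on chow, so its chow libraries enclosed the high-fat ones. Alg10b, the glucosyltransferase that completes the glycan, had 41.5, 40.1 and 41.9 CPM on the high-fat diet and 35.1 and 37.7 CPM on chow (adjusted p = 0.155). Over this role the log2 fold changes ran from -0.25 for Alg6, which adds the initial glucose, to 0.50 for Alg12, with -0.19 for Alg13, a partner of Alg14 in adding the second sugar. In the whole role the groups did not overlap for 9 of the 14 genes (64.3%), all 9 with the high-fat libraries above. Of all genes tested, 55.4% had no overlap either way and 32.8% had the high-fat libraries above.

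Of the 11 oligosaccharyltransferase genes, 4 were called higher and 0 lower with the deposited CPM (14.9% and 8.78% of all genes). Differences between the subunits were not tested. Rpn1, a ribophorin known to hold substrates near the enzyme, was at 210, 207 and 209 CPM in the high-fat libraries, against 132 and 149 CPM in the chow libraries, a log2 fold change of 0.57 ± 0.09 (adjusted p = 0.00726). Stt3a, the catalytic subunit of the translocon-bound complex, was at 169, 174 and 185 CPM on the high-fat diet and at 122 and 120 CPM on chow. Ostc, which belongs to the same complex and links it to the translocon, was at 84.1, 89.5 and 88.9 CPM on the high-fat diet and at 63 and 60.9 CPM on chow. Both showed a gap between the groups, with changes of 0.54 ± 0.09 and 0.49 ± 0.08 (adjusted p = 0.00678 and 0.00646). Stt3b, the catalytic subunit of the other complex, was at 87.2, 83.9 and 94.8 CPM on the high-fat diet and at 72.9 and 67 CPM on chow. Its call (0.34 ± 0.09, adjusted p = 0.0364) was lost in 11 of 15 alternative fits.

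Magt1 and Tusc3 encode the alternative oxidoreductase subunits of the STT3B complex. Magt1 had 121, 121 and 126 CPM in the high-fat libraries and 152 and 142 CPM in the chow libraries, with all high-fat libraries below, and did not pass with the deposited CPM (log2 fold change -0.26, adjusted p = 0.0637). It was called lower with median-ratio scaling (-0.33, adjusted p = 0.0318). It was not called with the acinar covariate (-0.24, adjusted p = 0.159). With trends in exon length and GC content removed, its change was -0.11 (adjusted p = 0.298). Tusc3 had 62.3, 69.1 and 65.9 CPM on the high-fat diet and 66.1 and 71.5 CPM on chow, and the groups overlapped. Rpn2 and Ddost, which are shared by both complexes, lay just outside the threshold. Rpn2 had 298, 298 and 321 CPM on the high-fat diet and 225 and 253 CPM on chow (adjusted p = 0.0503), and Ddost had 202, 213 and 216 CPM on the high-fat diet and 158 and 178 CPM on chow (adjusted p = 0.0516). The small subunits Ost4 and Tmem258 had log2 fold changes of 0.28 and 0.27, and Dad1 had -0.12 (adjusted p = 0.0592, 0.111 and 0.394). In GENCODE M21, 53.2% of the exon bases of Ost4 overlap other genes, the largest part Agbl5 on the other strand. Per kilobase of exon, the mean level ran from 7.98 CPM for Dad1 to 99.4 CPM for Ddost on the high-fat diet, and from 8.71 CPM for Dad1 to 79.5 CPM for Ddost on chow, so those genes marked the ends of the order on both diets.

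Of the glucosidases, Mogs and Prkcsh were called higher. Mogs, glucosidase I, which removes the outermost glucose, was at 49, 46.1 and 46.9 CPM in the high-fat libraries, against 30.1 and 31.6 CPM in the chow libraries (0.60 ± 0.08, adjusted p = 0.00322). Prkcsh, the beta subunit of glucosidase II, was at 84.5, 86.3 and 88.7 CPM on the high-fat diet and at 47.3 and 53.6 CPM on chow. Its log2 fold change was 0.77 ± 0.09 (adjusted p = 0.0018). Ganab, the catalytic subunit of glucosidase II, had 144, 150 and 135 CPM on the high-fat diet and 116 and 136 CPM on chow, and the groups overlapped (0.18 ± 0.10, adjusted p = 0.228). The subunits of this enzyme thus differed in call with the deposited CPM, a difference between genes that was not itself tested.

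Ratios of related members within a library do not depend on how libraries are scaled, and for 5 pairs they were set against each other with an exact permutation test, two-sided. With 3 against 2 libraries the smallest p of this test is 0.2, so none can pass. Sec61a1 over Sec61a2 was 112, 117 and 82.2 in the high-fat libraries and 38.2 and 32.6 in the chow libraries (exact permutation p = 0.2, adjusted p = 0.25 over the 5 pairs). Srprb over Srpr was 0.174, 0.187 and 0.205 on the high-fat diet and 0.132 and 0.143 on chow (exact permutation p = 0.2, adjusted 0.25). Stt3a over Stt3b was 1.94, 2.08 and 1.95 on the high-fat diet and 1.67 and 1.79 on chow (exact permutation p = 0.2, adjusted 0.25). The high-fat ratios were all above the chow ratios in these 3 pairs, and all below them for Magt1 over Tusc3, with 1.95, 1.75 and 1.91 on the high-fat diet against 2.3 and 1.98 on chow (exact permutation p = 0.2, adjusted 0.25). Sec11a over Sec11c overlapped between the diets (exact permutation p = 0.6, adjusted 0.6).

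**Figure D3:**
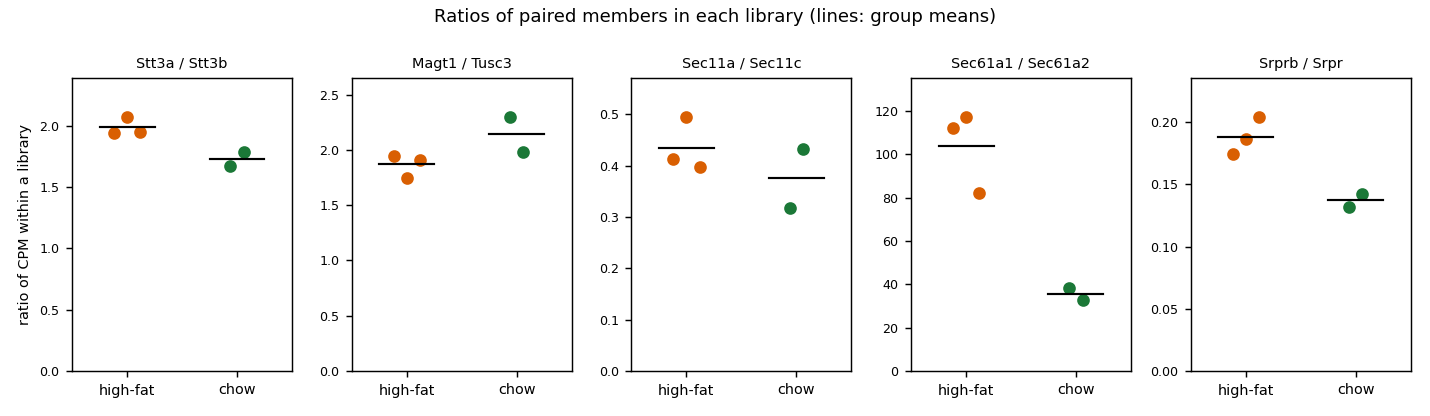
Ratio of the CPM of 5 pairs of members within each library, with 3 high-fat libraries left of 2 chow libraries; lines are group means and each axis starts at 0. The widest relative gap is that of Sec61a1 over Sec61a2, with means of 104 on the high-fat diet and 35.4 on chow.

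The summed CPM of the 50 members was 4101, 4065 and 4154 in the high-fat libraries and 3477 and 3499 in the chow libraries. The high-fat libraries averaged 4106 ± 44.8 CPM (SD, n = 3) and the chow libraries 3488 ± 15.8 CPM (SD, n = 2), a difference of 17.7% (exact two-sided permutation p = 0.2, the smallest possible). The direction turned with the library size. Scaled to the summed CPM of all genes, the members' sums were 3848 ± 272 on the high-fat diet and 3880 ± 622 on chow (exact permutation p = 1), and without acinar and insulin genes in that sum they were 3664 ± 112 on the high-fat diet and 4145 ± 309 on chow (exact permutation p = 0.2).

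The make-up of the sum is free of the library size. Of every 1000 CPM of the members, Sec61a1 took 60.9 ± 1.9 in the high-fat libraries and 46.6 ± 3.05 in the chow libraries, while Rpn1 took 50.9 ± 0.533 on the high-fat diet and 40.3 ± 3.21 on chow (SD, n = 3 and 2). On the other side, Magt1 took 29.9 ± 0.4 on the high-fat diet and 42.1 ± 2.32 on chow, and Sec62 took 25.7 ± 1.51 on the high-fat diet and 38.8 ± 3.65 on chow. Spcs3 took 51.1 ± 2.03 on the high-fat diet and 62.1 ± 5.85 on chow. Srp72 took 28.3 ± 0.0811 on the high-fat diet and 36 ± 2.09 on chow. These 6 genes were picked as examples after their values were seen. Their shares did not overlap between the diets, as was the case for 31 of the 50 members, 15 with the high-fat libraries above and 16 below. Of all genes tested, 55.4% had no overlap in CPM, a measure unlike a share of the members' sum. Since shares sum to a fixed total, a larger share of some members entails a smaller share of others.

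Transcript composition moved with the fold changes. The members called higher had a median GC content of 51.3% in the longest GENCODE M21 transcript, the 2 called lower 44.2% and the 32 not called 46.7%. Over all protein-coding genes tested, the medians were 52.4%, 46.6% and 49.7% for genes called higher, lower and not called. Across the 50 members, which share the same libraries, Spearman's rho between GC content and log2 fold change was 0.54 and Pearson's r was 0.53. After trends with exon length and GC content were removed, 15 members were higher (11.7% of all genes) and 2 lower (9.38% of all genes). Of the calls with the deposited CPM, 13 of the 16 higher and 1 of the 2 lower were kept. Stt3a, with 40.5% GC the lowest of the members called higher, changed by 0.60 in that fit (adjusted p = 0.0026).

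**Figure D4:**
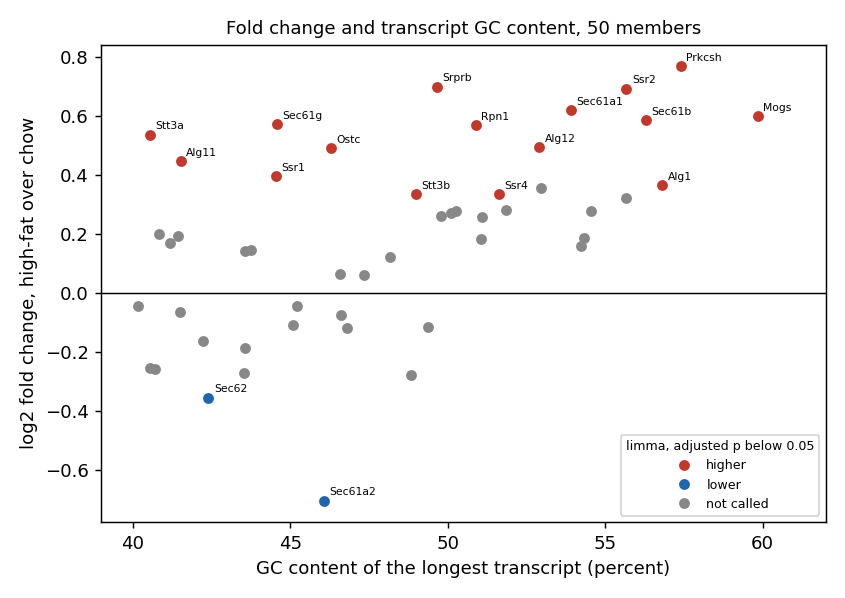
Log2 fold change, high-fat over chow, against the GC content of the longest GENCODE M21 transcript for the 50 members; colours give the limma call with the deposited CPM. Members called higher span 40.5% to 59.9% GC, and the 2 called lower lie at 42.4% and 46.1%.

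Promoters are shown for 4 members that were called higher, because genes of this machinery are known targets of the unfolded protein response (UPR), whose factors bind the ER stress response element (ERSE), a CCAAT box and a CCACG spaced by a fixed gap. The stretches are the 250 bases before the start site from RefSeq on GRCm38.p6, which may differ from the build the authors used. They are written 5′ to 3′ on the gene's strand, with capitals marking CCAAT and CCACG on either strand. Alg12 holds the full element, Stt3a and Rpn1 are oligosaccharyltransferase genes that hold both motifs, but not as the full element, and Srprb has the smallest adjusted p.
Alg12 (chr15:88819319-88819568, minus strand): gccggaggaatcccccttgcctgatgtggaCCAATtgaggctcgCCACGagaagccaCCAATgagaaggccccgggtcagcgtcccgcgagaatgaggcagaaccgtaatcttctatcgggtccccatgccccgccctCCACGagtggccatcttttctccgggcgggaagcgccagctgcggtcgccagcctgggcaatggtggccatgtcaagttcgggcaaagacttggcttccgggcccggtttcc
Stt3a (chr9:36767623-36767872, minus strand): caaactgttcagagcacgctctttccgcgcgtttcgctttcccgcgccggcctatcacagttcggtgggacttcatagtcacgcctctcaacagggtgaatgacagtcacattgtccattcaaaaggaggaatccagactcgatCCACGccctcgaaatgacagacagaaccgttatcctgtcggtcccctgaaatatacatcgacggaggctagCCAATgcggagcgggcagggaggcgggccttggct
Rpn1 (chr6:88084223-88084472, plus strand): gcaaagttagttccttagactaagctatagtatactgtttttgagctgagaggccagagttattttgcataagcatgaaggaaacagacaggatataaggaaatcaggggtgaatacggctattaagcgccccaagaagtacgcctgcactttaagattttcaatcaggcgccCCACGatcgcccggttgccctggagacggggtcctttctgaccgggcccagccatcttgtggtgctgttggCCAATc
Srprb (chr9:103202066-103202315, minus strand): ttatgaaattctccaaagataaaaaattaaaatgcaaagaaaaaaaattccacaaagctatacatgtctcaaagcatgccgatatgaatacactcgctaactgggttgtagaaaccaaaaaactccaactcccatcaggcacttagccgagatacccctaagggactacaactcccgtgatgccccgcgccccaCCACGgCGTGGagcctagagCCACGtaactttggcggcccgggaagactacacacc

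In these windows 39 of the 50 members had an entry, matched by symbol. The ERSE, searched on both strands as CCAAT followed after 9 bases of any kind by CCACG, was found in 1 of them, Alg12, where it starts 220 bases before the start site, against 0.13% of the 27025 genes with an entry. The related element ERSE-II, ATTGG followed after 1 base by CCACG, was in 0 members (0.037% of all genes). TGACGTGG, the core that the UPR factor XBP1 binds, which holds CCACG on its other strand, was in 0 members (0.603% of all genes). CCAAT alone was in 16 of 39 members (37.5% of all genes) and CCACG alone in 19 of 39 (31%). Among the 12 members called higher that had an entry, 5 held CCAAT and 6 held CCACG. A match of letters is a description of the sequence and not a measured binding site.

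Other genes of the pathway, taken from lists chosen with earlier results of these data known, were described in the same fit. Of 18 genes that supply dolichol and sugar donors, 4 were higher and 1 lower, with a median log2 fold change of 0.24. Gmppb, which makes GDP-mannose, was at 29.8 ± 1.74 CPM on the high-fat diet and at 15.4 ± 0.336 CPM on chow (SD, n = 3 and 2). Dpm3, a subunit of the dolichol-phosphate mannose synthase, was at 16 ± 1.71 CPM on the high-fat diet and at 8.81 ± 0.439 CPM on chow, and Dhdds, a subunit of the enzyme that makes dolichol's chain, at 55.0 ± 2.14 CPM on the high-fat diet and at 44.3 ± 0.849 CPM on chow (adjusted p = 0.00104, 0.00556 and 0.0313 for these 3). The gene called lower was Dpm1, the catalytic subunit of the same synthase, with 20.6 ± 1.73 CPM on the high-fat diet and 27 ± 1.81 CPM on chow. It was named after its value was seen, as were Emc2 and Ddit3 below.

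Of 20 genes of glycoprotein quality control and ER-associated degradation, 3 were higher and 0 lower (median 0.17). They were Edem3, a mannosidase that marks glycoproteins for degradation (126.8 ± 5.5 CPM on the high-fat diet and 87.5 ± 5.12 CPM on chow), the cargo receptor Lman1 (312 ± 5.57 CPM on the high-fat diet and 209.8 ± 16.7 CPM on chow) and the ubiquitin ligase Syvn1 (58.8 ± 5.09 CPM on the high-fat diet and 39.9 ± 3.94 CPM on chow). Of 16 genes of other insertion routes in the table, 4 were higher and 1 lower (median 0.16). Emc1, the largest subunit of the ER membrane complex, was at 55.8 ± 1.55 CPM on the high-fat diet and at 25.7 ± 3.75 CPM on chow, and Tram1, which sits beside the Sec61 channel, was at 278 ± 4.9 CPM on the high-fat diet and at 206 ± 21.9 CPM on chow. Sgta, a chaperone that hands over tail-anchored proteins, was at 35.3 ± 1.8 CPM on the high-fat diet and at 26.4 ± 1.26 CPM on chow, and Emc2 was the gene called lower (9.66 ± 0.694 CPM on the high-fat diet and 13.9 ± 1.98 CPM on chow).

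Of 19 ER chaperone and UPR genes in the table, 6 were higher and 1 lower (median 0.23). Hyou1, an ER chaperone of the HSP family, was at 688 ± 24.7 CPM on the high-fat diet and at 338 ± 41.6 CPM on chow (1.03 ± 0.14, adjusted p = 0.00339). Pdia4, a disulfide isomerase, was at 149 ± 7.67 CPM on the high-fat diet and at 90.2 ± 0.218 CPM on chow, and Sdf2l1, a chaperone cofactor, was at 47.2 ± 2.45 CPM on the high-fat diet and at 28.7 ± 2 CPM on chow. Ddit3, which encodes the stress factor CHOP, was the gene called lower (9.56 ± 1.48 CPM on the high-fat diet and 18.4 ± 0.352 CPM on chow). Of 15 genes of N-glycan processing in the Golgi, 3 were higher and 0 lower (median 0.11), namely the branching enzyme Mgat5 (52.9 ± 3.8 CPM on the high-fat diet, 30.0 ± 0.73 CPM on chow), the sialyltransferase St6gal1 (78.9 ± 4.36 CPM on the high-fat diet and 58.4 ± 4.94 CPM on chow) and the mannosidase Man2a2 (94.1 ± 2.05 CPM on the high-fat diet and 65.4 ± 12.2 CPM on chow). Beside these, 14.9% of all genes tested were called higher and 8.78% lower.

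The remaining marker lists are given beside the same shares of all genes tested, 14.9% called higher and 8.78% lower. Of 6 alpha-cell markers 1 was higher and 0 lower, with a summed level of 11559 to 13266 CPM on the high-fat diet, against 2554 to 10673 CPM on chow. Of 3 tested delta-cell markers 1 was higher and 0 lower, of 2 PP-cell markers 0 and 0, of 7 ductal markers 1 and 2, of 7 endothelial markers 0 and 2, and of 8 immune markers 1 and 1.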

How the data were processed

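Gene expression in islets was measured by RNA sequencing in 6 samples. The deposited table names no unit, and the submitters' processing notes list Partek. They were read as CPM plus 1 as made by the authors, since the lowest value of each column is exactly 1 and low values step by the worth of 1 read, and 1 was subtracted. The aligner, build, counting and library kit were not given in the sources used here. Among values of at most 20 reads, 64.6% to 70.0% lay within 0.1 of a whole number, so counts were not recovered. A floor of 3 reads lay at 0.0856 to 0.16 CPM, for counting error only.

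Differences were tested with limma 3.58.1 (R 4.3.3, trend in the variance prior) on log2(CPM + 1) over 16939 genes that averaged 0.5 CPM or more, with Benjamini-Hochberg adjustment over all of them at 0.05, and single values with exact permutation tests (scipy 1.17.1). Fold changes on this scale understate those of low genes. GENCODE M21 gave exon lengths (the union of a gene's exons), the GC content of the longest transcript and the 31-base words that genes share. The members, lists and tests were chosen with earlier results of these data known. Any member could be named, and of each pathway list the 3 genes with the smallest p. Dpm1, Emc2, Ddit3 and Bhlha15 were named beyond this rule, after their values were seen, and Rn7sk and rows that share sequence with members were named for what they are. Alternatives covered scaling, pseudocount, filter, an acinar covariate, all 6 columns and each library left out. Removal of length and GC trends and scaling by the summed CPM were chosen after seeing the data. Scaling by the summed CPM was applied to the members' sum only, and the calls were not refitted with it. Library sizes without acinar and insulin genes were the summed CPM of the remaining gene rows, not the read total less those genes.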

Additional observations from a re-analysis of the deposited data

How the results depend on the processing

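Pseudocounts of 0.5 and 2 and a filter at 1 CPM left the counts of members called within 1.5 times of 16 higher and 2 lower. The counts were 12 higher and 4 lower with either median-ratio scaling or an unweighted trimmed mean of M values. Library sizes without acinar and insulin genes gave 0 and 13, and an acinar covariate gave 10 and 0. With no filter they were 9 and 0 (1080 and 573 of all genes). With all 6 columns, the averaged one included, they were 25 and 4 (4224 and 2828 of all genes). In the reported fit 2524 of all genes were higher and 1487 lower. Leaving out 1 library gave 9 to 17 higher and 0 to 3 lower: 10 and 0 without chow replicate 1, 17 and 3 without chow replicate 3, and 11 and 0, 9 and 0, and 10 and 1 without high-fat replicates 1, 2 and 3. Without high-fat replicates 1, 2 and 3, 1441, 1167 and 1222 of all genes were called higher. In the same fits 790, 682 and 745 of all genes were called lower. Calls among all genes thus also fell below those of the reported fit when a high-fat library was left out. With 1 chow library left, it was assumed to vary like the others, and the counts without a chow replicate rest on that assumption.

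The members' summed CPM differed by 595 to 639 CPM with a library left out, and the difference of 619 CPM turned to -480 CPM without acinar and insulin genes and to -31.9 CPM with the summed CPM of all genes as library size. Among the log2 ratios, those left-out ranges were 0.15 to 0.25 for Stt3a over Stt3b, -0.30 to -0.084 for Magt1 over Tusc3, 1.43 to 1.70 for Sec61a1 over Sec61a2, 0.39 to 0.51 for Srprb over Srpr and -0.00070 to 0.45 for Sec11a over Sec11c, which turned without chow replicate 1.

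Log2 fold changes that turned when acinar and insulin genes left the library size, where the median of all genes was -0.29, were those of Ganab (-0.23), Alg1 (-0.020), Dpagt1 (-0.10), Alg10b (-0.23), Dolk (-0.092), Alg9 (-0.12), Alg3 (-0.17), Alg14 (-0.19), Alg2 (-0.28), Alg8 (-0.25), Stt3b (-0.070), Rpn2 (-0.054), Ddost (-0.087), Ost4 (-0.12), Tmem258 (-0.12), Ssr1 (-0.012), Ssr4 (-0.070), Ssr3 (-0.21), Spcs1 (-0.21), Sec11a (-0.25), Spcs2 (-0.35), Srpr (-0.15) and Srp68 (-0.22). With the acinar covariate Alg8 (-0.093), Alg5 (0.017) and Sec11c (0.051) turned, with length and GC trends removed Tusc3 (0.086) and Spcs3 (0.14), with median-ratio scaling Spcs2 (-0.017) and with the trimmed mean Spcs2 (-0.020). With 1 library left out, Alg2 (-0.072 to 0.32), Alg8 (-0.12 to 0.24), Alg5 (-0.13 to 0.063), Sec11c (-0.18 to 0.032) and Spcs3 (-0.14 to 0.047) turned, all 5 without chow replicate 1 and Alg5 also without high-fat replicate 3. Apart from Alg1, Stt3b, Ssr1 and Ssr4, none of these was called with the deposited CPM, and the cause was not tested. No paired analysis was possible because the labels name no pairs between the diets, and replicates with the same number here are not known to be pairs.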
